A study of Mus musculus with 4 samples.

Results

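The RNA of 41 genes that are typical of macrophages and related myeloid cells was examined in cultured mouse embryonic fibroblasts. The genes were chosen with earlier results of these data known, so their counts beside the shares of all probe sets are descriptions. They were grouped by role: complement C1q, Fc receptors with their signalling adaptors, the lineage receptor and transcription factor, scavenger and pattern receptors, leukocyte surface proteins, lysosomal and killing proteins, chemokines and lipid mediators, and signalling and cytoskeletal proteins. Of the 41 genes, 40 had at least 1 probe set that the platform annotation gave to that gene alone, 63 probe sets in all, out of 20380 such probe sets for 12393 genes. The kinase gene Lyn was not analysed here. For each gene the probe set with the highest mean signal over the 4 arrays stands for the gene. The other 23 probe sets are summed up together, and some are described beside their gene.

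The study comprised 4 arrays, each with RNA from mouse embryonic fibroblasts that had received the retroviral vector pBabePuro. Control 1 and control 2 carried the empty vector. In mTert 1 and mTert 2 the vector held mTert, the protein subunit of mouse telomerase that copies the telomere repeat. All 4 samples thus shared the vector, and the labels give no mouse strain, embryo age or passage and do not say whether arrays came from separate cultures, so the p-values below measure the spread between these arrays, which may be technical. Tert itself was called absent on both controls, with signals of 128.0 and 84.7, and present on both mTert arrays, with 1164.4 and 845.6.

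Macrophages are resident phagocytes that arise from yolk sac, fetal liver and bone marrow progenitors, and embryonic tissue already holds them. The transcription factor PU.1, encoded by Spi1, drives their gene programme, and signalling through the receptor Csf1r keeps them alive. They bind antibody, complement and debris with surface receptors, degrade what they take up in lysosomes rich in cathepsins and lysozyme, and kill microbes with an oxidase. Fibroblasts secrete Csf1, the ligand of Csf1r.

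The arrays were alike in overall detection. The median signal lay between 210.15 and 224.1, and the signal of the 3' end over that of the 5' end, a measure of RNA quality, lay between 1.14 and 1.22 for actin and between 0.773 and 0.837 for Gapdh. Control 1 received 5 µg of labelled cRNA according to the instrument record, and every other array 15 µg. Each array had its own wash module and its own scan, so these cannot be told apart from the array. All 20 fibroblast markers examined, collagens, fibronectin and vimentin among them, were called present on all 4 arrays, and their summed signal lay between 159367 and 165650.

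The labels describe both arrays of a group in the same words, and the comparison of number 2 with number 1 asks how far the arrays of a group differ in these genes. Most of them were higher on number 2 in both groups. Of the 40 genes, 18 were called present on control 1 and 30 on control 2, and 17 on mTert 1 and 29 on mTert 2. Over all 22626 non-control probe sets these shares were 54.4%, 52.9%, 51.6% and 54.1% in the same order. The summed signal of the 40 genes was 11827 on control 1, 34974 on control 2, 13789 on mTert 1 and 36541 on mTert 2, so both arrays numbered 2 lay above both numbered 1. For 10 genes the call was present on both arrays numbered 2 and on neither array numbered 1: C1qa, C1qc, Fcgr3, Fcer1g, Tyrobp, Cd14, Cd53, Mpeg1, Coro1a and Lcp1. Of all 22626 probe sets, 0.835% showed that pattern and 0.482% the opposite one, which no member gene showed. The calls come with the deposited files, as present, marginal or absent. In RNA from a whole culture, fewer cells of a type and less RNA per cell cannot be told apart.

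**Figure D1:**
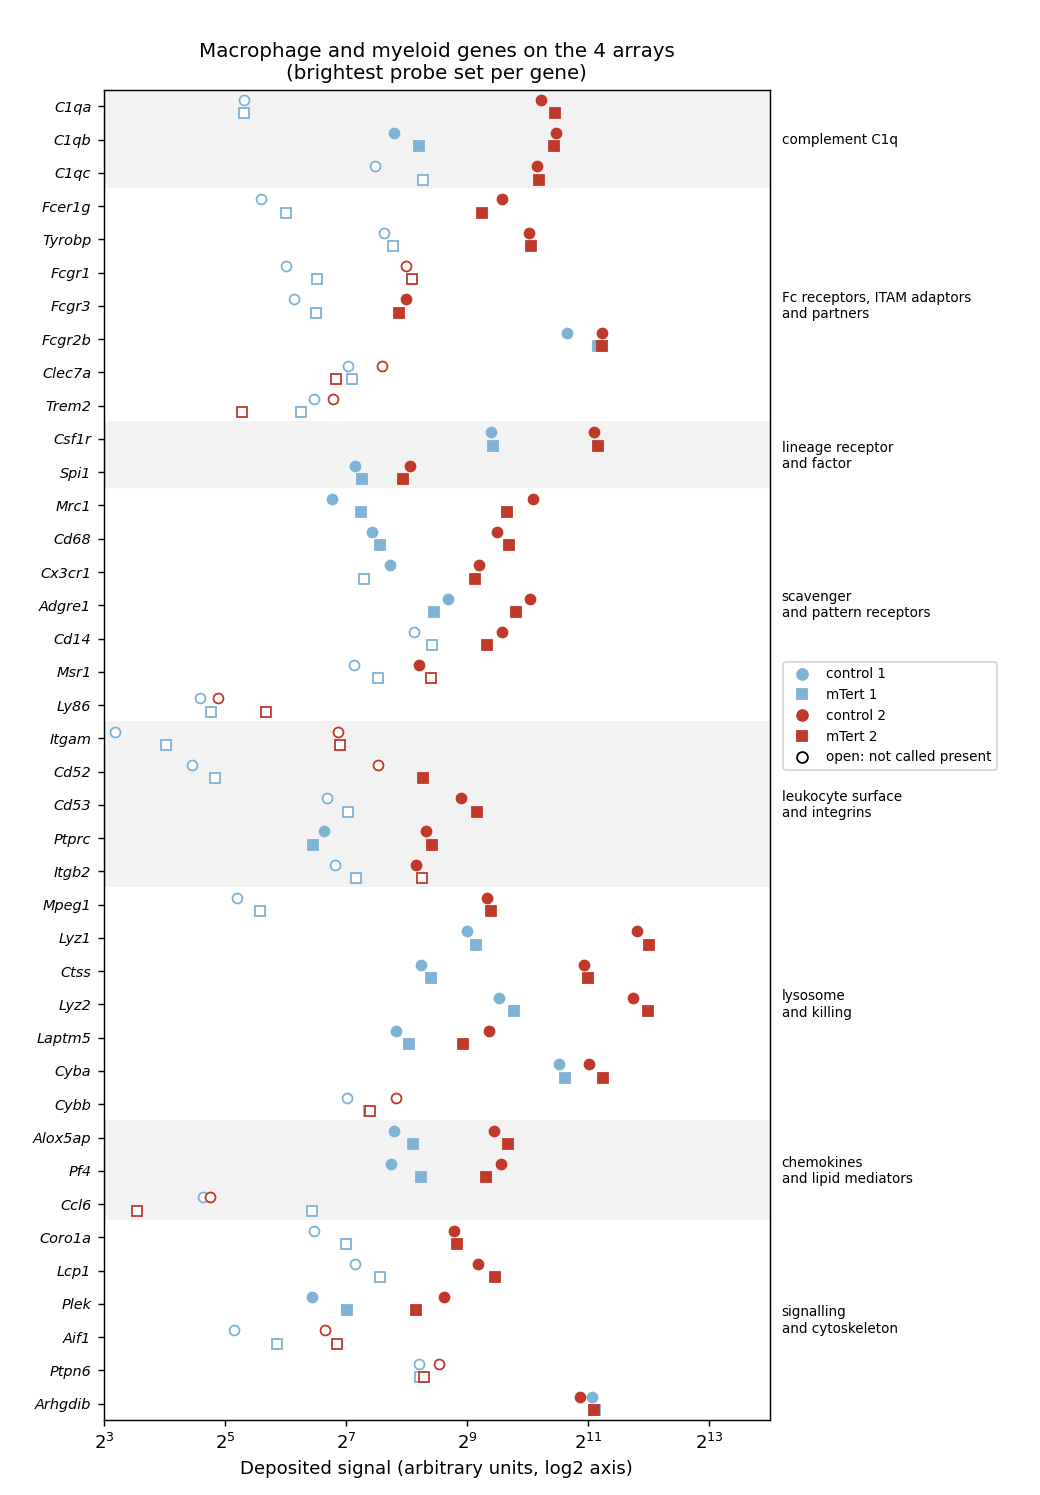
Deposited signal (arbitrary units, log2 axis) of the brightest probe set of each of the 40 genes on the 4 arrays, ordered by role. Circles are control arrays and squares mTert arrays, blue marks number 1 and red number 2, and open symbols were not called present. For 36 of the 40 genes both red symbols lie to the right of both blue ones.

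Within the control group 39 of the 40 genes had a higher signal on array 2 than on array 1, where 54.8% of all probe sets did, and 30 differed by at least 2-fold, where 6.71% of all probe sets did. Within the mTert group 36 genes were higher on array 2, against 43.7% of all probe sets, and 27 differed by at least 2-fold, against 3.92%. All 27 of these had passed 2-fold within control too, against 1.31% of all probe sets that did so in both groups. The median difference was 1.77 on the log2 scale within control and 1.57 within mTert, where the medians of all probe sets were 0.04 and -0.05. Both mTert arrays had been given 15 µg of cRNA, while the control arrays had been given 5 and 15 µg. Each within-group difference sets 1 array against 1 and has no replicate of its own. Over the 40 genes the difference within control and that within mTert had a Pearson r of 0.90, given as a description of points that share their libraries.

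**Figure D2:**
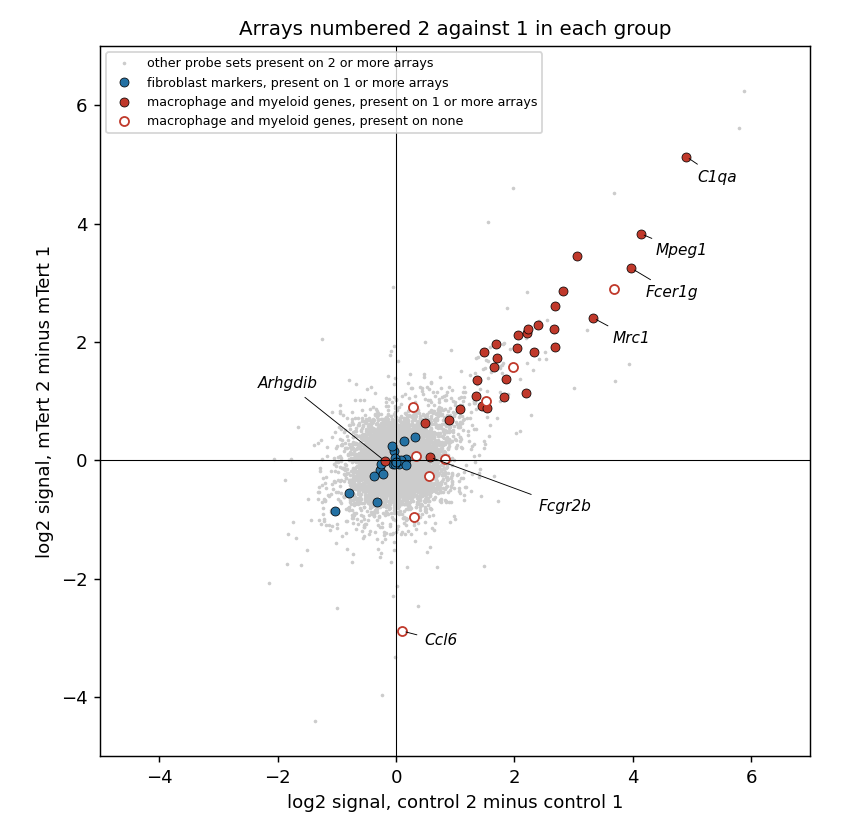
Difference in log2 signal between the arrays numbered 2 and 1 within control (x axis) and within mTert (y axis), 1 point per probe set. Red points are the brightest probe sets of the 40 genes, open where no array called them present, blue points the 20 fibroblast markers, and grey points all other probe sets present on 2 or more arrays. C1qa lies at 4.90 and 5.13, while Arhgdib lies at -0.20 and -0.01.

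In limma, with number and group as terms over the 12396 probe sets called present on at least 2 arrays, 214 probe sets (1.73%) were higher on number 2 and 133 (1.07%) lower at an adjusted p under 0.05. An exact two-sided permutation test of 2 arrays against 2 can go no lower than p = 0.333. The smaller p-values of the limma fit rest on a spread borrowed from other probe sets. The members had 37 probe sets of 28 genes in that fit. Among them 34 probe sets, the brightest of 25 genes included, were higher and 0 were lower, with 36 of the 37 at an unadjusted p under 0.05. Because 10 of the 28 genes entered the fit only through their present calls on number 2, they had to differ, and these counts describe the genes that entered rather than all 40. For these genes, and for other probe sets that would not have entered without their present calls on number 2, the SE and adjusted p given below are from the fit without a filter. Without any filter on calls, 28 of the 40 genes were higher and 0 lower, where 0.725% of all 22626 probe sets were higher. Among probe sets called present on all 4 arrays, which no call on number 2 alone could bring in, 16 of 19 were higher, against 1.24% of all 10949 such probe sets. Leaving out control 2 or mTert 2, which puts a single array on the side of number 2, left 24 of the 37 called in either case. All fits of number 2 minus number 1 without a single array, here and below, had number as their only term. With all 4 arrays that term alone gave 192 calls over all probe sets and 32 among the 37. With the group term these counts were 347 and 34.

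The complement C1q genes encode the 3 chains of the protein that opens the classical complement pathway by binding antibody on a surface, and macrophages are its main source in the body. C1qa signals were 39.8 on control 1 and 39.8 on mTert 1, both absent, against 1189.0 on control 2 and 1394.9 on mTert 2, both present. This was the largest difference of any member, with number 2 at least 32.3-fold above number 1 (log2 difference 5.02, SE 0.25, limma adjusted p = 1.47e-06). It was at least 29.9-fold within control and at least 35.0-fold within mTert. Folds of number 2 over number 1 that name no group, here and below, are means over both groups. A single group can lie below them. C1qb was present throughout, at 222.4 and 295.9 on control 1 and mTert 1 and at 1421.8 and 1382.9 on control 2 and mTert 2. Its difference was 2.45 (SE 0.17, limma adjusted p = 1.12e-07), and its other 2 probe sets rose by 1.46 (adjusted p = 0.086 without mTert 2) and 2.22. C1qc read 177.7 on control 1 and 310.0 on mTert 1, absent on both, and 1143.5 on control 2 and 1170.0 on mTert 2. All 3 chains were thus higher on both arrays numbered 2, with C1qc at least 4.93-fold (limma adjusted p = 0.000123). In the mouse genome the genes lie side by side on chromosome 4, with C1qb next to C1qc and C1qc next to C1qa.

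Since these genes moved together, their promoters were read from RefSeq (build GRCm38.p6) as the 250 bases before the gene start, 5' to 3' on the gene's strand. Windows were found for 30 of the 41 genes. The genes with the largest differences that had a window and were called present on both arrays numbered 2 were Mpeg1, Fcer1g and Mrc1, and their windows are shown for that reason.
Mpeg1 (chr19:12460520-12460769, plus strand): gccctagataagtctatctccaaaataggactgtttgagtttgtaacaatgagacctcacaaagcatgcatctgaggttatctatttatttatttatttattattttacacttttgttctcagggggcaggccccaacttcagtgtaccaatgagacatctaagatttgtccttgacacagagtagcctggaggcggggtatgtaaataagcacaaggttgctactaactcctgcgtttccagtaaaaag
Fcer1g (chr1:171234350-171234599, minus strand): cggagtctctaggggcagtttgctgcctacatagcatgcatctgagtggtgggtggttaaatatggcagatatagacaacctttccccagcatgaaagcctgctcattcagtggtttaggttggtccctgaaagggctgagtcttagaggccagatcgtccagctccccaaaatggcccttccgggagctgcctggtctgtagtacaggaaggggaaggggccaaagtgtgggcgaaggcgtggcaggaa
Mrc1 (chr2:14229164-14229413, plus strand): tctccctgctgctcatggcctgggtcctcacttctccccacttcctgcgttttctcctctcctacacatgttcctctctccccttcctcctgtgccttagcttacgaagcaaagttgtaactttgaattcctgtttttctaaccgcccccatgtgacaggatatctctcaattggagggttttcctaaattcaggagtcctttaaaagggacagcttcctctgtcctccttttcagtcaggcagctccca
None of these 3 held the letters searched for, which were GAGGAAGT for PU.1, TTGCNNAA for C/EBP factors, TGANTCA for AP-1 and TATAAA for the TATA box, each on both strands. No match says only that these letters are not in this window. The PU.1 letters stood in 2 of the 30 windows (6.67%), those of C1qc and Pf4, against 755 of 27025 windows of all genes (2.79%). These windows are shown with the match in capitals, and in Pf4 the match to the C/EBP letters is in capitals too.
C1qc (chr4:136892915-136893164, minus strand): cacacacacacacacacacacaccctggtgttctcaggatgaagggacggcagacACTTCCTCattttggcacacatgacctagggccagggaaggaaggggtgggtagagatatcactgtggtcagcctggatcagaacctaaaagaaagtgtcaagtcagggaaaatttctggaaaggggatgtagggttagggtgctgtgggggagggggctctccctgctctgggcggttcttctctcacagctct
Pf4 (chr5:90772185-90772434, plus strand): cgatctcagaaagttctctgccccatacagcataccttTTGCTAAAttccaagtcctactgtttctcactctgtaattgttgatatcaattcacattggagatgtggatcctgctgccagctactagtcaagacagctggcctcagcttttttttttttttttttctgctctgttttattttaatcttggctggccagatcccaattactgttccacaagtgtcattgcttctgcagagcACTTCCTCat
In C1qc the match starts 195 bases before the gene start and in Pf4 10 bases before it, in both as the reverse complement ACTTCCTC. The C/EBP letters were in 4 of the 30 windows (13.3%, against 10.8% of all genes), the AP-1 letters in 3 (10.0%, against 7.82%) and the TATA box in 4 (13.3%, against 14.3%). A match is a run of letters, not a bound site.

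Fc receptors bind the constant part of antibodies, and the adaptors Fcer1g and Tyrobp carry the ITAM motifs through which many myeloid receptors signal. Fcer1g rose from 48.4 and 64.3 on control 1 and mTert 1, absent on both, to 761.8 and 609.3 on control 2 and mTert 2. Tyrobp rose from 196.8 and 219.0, absent on both, to 1035.7 and 1065.1 in the same order. The arrays of either number did not overlap, and number 2 was at least 12.2-fold higher for Fcer1g (limma adjusted p = 7.00e-05) and at least 5.06-fold for Tyrobp (3.48e-05). Fcgr3, a low-affinity activating IgG receptor that needs Fcer1g, read 70.4 and 91.2 on control 1 and mTert 1, absent on both, and 255.5 and 235.8 on control 2 and mTert 2. Its difference of 1.61 (SE 0.33, limma adjusted p = 0.0388) passed with all 4 arrays. In the fits with the filter the adjusted p was 0.106 without control 2 and 0.094 without mTert 2. Fcgr1, the high-affinity IgG receptor, was called absent on all 4 arrays, with signals of 64.6 and 92.1 on the arrays numbered 1 and 253.2 and 273.2 on those numbered 2. In the fit without a filter on calls its limma adjusted p was 0.021.

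Fcgr2b, the inhibitory IgG receptor, was called present on every array on its brightest probe set, at 1611.8 on control 1, 2394.7 on control 2, 2307.7 on mTert 1 and 2395.7 on mTert 2. Both arrays numbered 1 were lower, control 1 the more so, and the difference between numbers did not pass the test (0.31, SE 0.13, limma adjusted p = 0.355). In the fits without single arrays, which lacked the group term, the difference ran from 0.053 to 0.57. A dimmer probe set of the gene, present on number 2 alone, read 19.2 and 45.0 on control 1 and mTert 1 and 101.0 and 94.5 on control 2 and mTert 2. Its difference of 1.73 did not pass either (SE 0.53, limma adjusted p = 0.228). The remaining 2 probe sets of Fcgr2b were absent on all arrays, with both arrays numbered 2 above both numbered 1. Trem2, a lipid-sensing receptor that signals through Tyrobp, and Clec7a, a receptor for fungal glucans, were called absent on all 4 arrays. On their brightest probe sets the highest signal was 110.2 for Trem2 and 194.2 for Clec7a, and neither separated the numbers. The other Trem2 probe set, also absent throughout, read 18.1 and 20.0 on control 1 and mTert 1 and 56.8 and 116.4 on control 2 and mTert 2 (adjusted p = 0.137 without the filter).

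Csf1r, the receptor for the growth factor Csf1, was called present on every array, with signals of 670.5 and 690.6 on control 1 and mTert 1 and of 2191.8 and 2293.9 on control 2 and mTert 2. The rise was 3.27-fold within control and 3.32-fold within mTert (1.72 on the log2 scale, SE 0.13, limma adjusted p = 3.56e-07). Its other 2 probe sets were present on number 2 alone and rose by 1.10 and 2.19 (adjusted p = 0.00334 and 0.000165). Spi1, which encodes PU.1, read 142.4 and 153.7 on control 1 and mTert 1 and 266.0 and 245.8 on control 2 and mTert 2, present on all 4. Both arrays numbered 2 were higher, but the difference of 0.79 (SE 0.23, limma adjusted p = 0.091) did not pass the test, and it did (0.0426) when arrays were scaled to a common median.

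Scavenger and pattern receptors take up or sense modified lipids, sugars and microbial products. Mrc1, the mannose receptor, was present on all 4 arrays and had the largest difference in this role, from 108.8 and 152.0 on control 1 and mTert 1 to 1093.3 and 805.5 on control 2 and mTert 2. That was 10.0-fold within control and 5.30-fold within mTert (log2 difference 2.87, SE 0.22, limma adjusted p = 3.56e-07). Cd68, a glycoprotein of macrophage lysosomes and endosomes, rose from 172.4 and 189.9 to 718.1 and 825.0 in the same order, present throughout. Its rise was similar in size in both groups, 4.16-fold within control and 4.34-fold within mTert (limma adjusted p = 2.00e-06). Adgre1, which encodes the macrophage antigen F4/80, rose from 409.8 and 350.5 to 1057.7 and 901.8, again present throughout (1.37, SE 0.16, limma adjusted p = 5.71e-05). Cx3cr1, the fractalkine receptor, read 210.8 on control 1 and 157.0 on mTert 1, the latter absent, and 587.9 and 559.2 on control 2 and mTert 2. Its difference was 1.66 (SE 0.21, limma adjusted p = 0.00209 without the filter). Its second probe set was absent on all arrays.

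Cd14, the co-receptor that hands lipopolysaccharide to Tlr4, was absent on control 1 and mTert 1, at 279.0 and 341.4, and present on control 2 and mTert 2, at 761.5 and 645.3. As a mean over both groups number 2 was at least 2.27-fold higher (log2 difference 1.18, SE 0.19, limma adjusted p = 0.00891). The bound was 2.73-fold within control and 1.89-fold within mTert. In the fits with the filter the call was lost without control 2 (0.0934), without mTert 2 (0.0529) and with a spread that takes no account of intensity (0.102). Msr1, scavenger receptor A, was present on control 2 only, with signals of 140.1, 295.1, 184.6 and 337.4 on control 1, control 2, mTert 1 and mTert 2. It was not among the probe sets tested with the filter, and without it the limma adjusted p was 0.120. Its other 3 probe sets did not pass either. Ly86, which encodes MD-1 and partners the receptor Cd180, was absent on all 4 arrays, at no more than 51.3.

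Among leukocyte surface proteins, Cd53, a tetraspanin of white blood cells, rose from 102.8 and 130.7 on control 1 and mTert 1, absent on both, to 476.7 and 577.0 on control 2 and mTert 2. It was at least 4.52-fold higher on number 2 (limma adjusted p = 0.000721). Ptprc, the pan-leukocyte phosphatase CD45, was called present on all 4 arrays, at 99.3 and 87.3 on the arrays numbered 1 and 320.4 and 342.7 on those numbered 2. The difference was 1.83 (SE 0.24, limma adjusted p = 0.000158), and without mTert 2 the adjusted p was 0.0516. Cd52, a small anchored glycoprotein of leukocytes, was present on mTert 2 only, with signals of 22.0, 184.1, 28.4 and 310.7 on control 1, control 2, mTert 1 and mTert 2. Without the filter on calls it was higher on number 2 (limma adjusted p = 0.00255). The fold was 9.57, which is no lower bound, since control 2 was called absent.

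The integrin chains Itgam (CD11b) and Itgb2 (CD18) pair to form the complement receptor CR3. Itgam was called present on no array, at 9.1 and 16.2 on control 1 and mTert 1 and 116.8 and 119.9 on control 2 and mTert 2, the last of these marginal. Its limma adjusted p without the filter was 0.0139. Itgb2 was present on control 2 only and marginal on mTert 2, at 112.5, 286.1, 142.9 and 304.1 on control 1, control 2, mTert 1 and mTert 2. Without the filter its adjusted p was 0.063, so this chain did not pass.

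Lysosomal and killing proteins break down or kill what a phagocyte takes up. Lyz2, the lysozyme of macrophages, rose from 736.3 and 874.2 on control 1 and mTert 1 to 3432.6 and 4058.6 on control 2 and mTert 2, which is 4.66-fold within control and 4.64-fold within mTert (2.22, SE 0.12, limma adjusted p = 6.87e-09). Lyz1 rose from 511.7 and 570.2 to 3595.9 and 4126.4 in the same order on its brightest probe set (2.83, SE 0.13, adjusted p = 4.96e-10). Lyz1 and Lyz2 are near-identical copies that lie next to each other on chromosome 10. The name of the bright Lyz1 probe set ends in x_at, the maker's mark for probes that can bind related transcripts, so its signal may hold Lyz2 RNA. Another x_at probe set of Lyz1, called present on mTert 1 alone, read 130.8 and 132.9 on control 1 and mTert 1 and 679.7 and 1498.7 on control 2 and mTert 2 (adjusted p = 0.000123 without the filter). A Lyz1 probe set without that mark was absent on all 4 arrays, at 114.6 and 86.1 on control 1 and mTert 1 and 112.1 and 95.0 on control 2 and mTert 2. Which copy gave the signal is therefore uncertain.

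Ctss, cathepsin S, a protease that trims the invariant chain for antigen presentation, was present throughout and rose from 302.3 and 337.1 on control 1 and mTert 1 to 1947.3 and 2045.9 on control 2 and mTert 2 (2.64, SE 0.15, limma adjusted p = 1.11e-08). Mpeg1, which encodes the pore-forming protein perforin-2 of macrophages, rose from 36.5 and 47.7, absent on both, to 641.8 and 677.0. It was at least 15.8-fold higher on number 2 (limma adjusted p = 3.75e-05), the largest bound after that of C1qa. Laptm5, a lysosomal membrane protein of blood cells, was present throughout, at 226.1 and 263.2 on the arrays numbered 1 and 656.6 and 486.0 on those numbered 2. Its difference of 1.21 (SE 0.20, limma adjusted p = 0.00165) missed the threshold without control 2 (0.124) and with a spread that takes no account of intensity (0.123), while a dimmer probe set of the gene rose by 2.93 (adjusted p = 8.80e-06, with 0.0563 without control 2 and 0.0795 without mTert 2). The remaining Laptm5 probe set was absent on all arrays.

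The oxidase subunits had the smallest differences of this role. Cyba (p22phox), which many cell types also make, read 1473.1 on control 1, 2076.1 on control 2, 1573.1 on mTert 1 and 2443.8 on mTert 2, present on all 4. Its rise of 0.56 (SE 0.12, limma adjusted p = 0.0116), or 1.48-fold, was the smallest that passed. The call was lost whichever single array was left out, in fits that also lacked the group term, where the rise ran from 0.45 to 0.68. With all 4 arrays it was lost without that term too (limma adjusted p = 0.0538), and without the intensity trend (0.293). Cybb (gp91phox), the catalytic subunit of phagocytes, was absent on all 4 arrays, with signals of 129.3, 228.0, 166.8 and 168.6 on control 1, control 2, mTert 1 and mTert 2.

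Of the secreted and lipid mediators, Pf4, a chemokine of platelets and of macrophages, was present throughout, at 213.8 and 302.9 on control 1 and mTert 1 and 756.3 and 634.3 on control 2 and mTert 2. The rise was 3.54-fold within control and 2.09-fold within mTert (1.44, SE 0.20, limma adjusted p = 0.000316). The call was lost without control 2 (0.0925), without mTert 2 (0.0561) and without the intensity trend (0.0934). Alox5ap, the protein that presents arachidonate to 5-lipoxygenase, rose from 222.1 and 275.5 to 699.9 and 818.9 in the same order, present on all 4 arrays (1.61, SE 0.18, limma adjusted p = 2.42e-05). The chemokine gene Ccl6 was absent on all arrays, with 11.7 on mTert 2 and 86.4 on mTert 1 as its lowest and highest signal, and its arrays showed no order by number.

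Signalling and cytoskeletal genes of blood cells divided into those called higher on number 2 and those not called on their brightest probe set. Coro1a, an actin-binding coronin of leukocytes, rose from 88.2 and 128.3 on control 1 and mTert 1, absent on both, to 441.4 and 458.6 on control 2 and mTert 2. Lcp1, the leukocyte plastin that bundles actin, rose from 141.9 and 189.7, present on neither, to 582.4 and 703.6. Number 2 was at least 4.23-fold higher for Coro1a (limma adjusted p = 0.00191) and at least 3.90-fold for Lcp1 (0.000594). A second probe set of each rose as well, by 1.74 (0.0355) and 2.74 (0.000166), both without the filter. In the fits with the filter that of Coro1a was not called without control 2 (0.0622) or mTert 2 (0.0983). Plek, pleckstrin, a protein kinase C substrate of platelets and leukocytes, was present throughout, at 86.3 and 128.9 on the arrays numbered 1 and 394.5 and 284.6 on those numbered 2 (1.67, SE 0.26, limma adjusted p = 0.00112). It was 0.155 without control 2, 0.0646 without mTert 2 and 0.114 without the intensity trend, although another Plek probe set rose by 2.05 (adjusted p = 0.00891). In the fits with the filter this one was not called without control 2 (0.0774) or without the intensity trend (0.0645).

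Arhgdib, whose product is abundant in blood cells, read 2147.8 on control 1, 1876.2 on control 2, 2204.5 on mTert 1 and 2194.5 on mTert 2, present throughout. The arrays showed no order by number, and its difference was -0.10 (SE 0.12, limma adjusted p = 0.924), and without single arrays it ran from -0.21 to 0.01. Ptpn6, the phosphatase SHP-1, was called present on no array. Its brightest probe set read 295.1, 372.3, 297.2 and 312.7 on control 1, control 2, mTert 1 and mTert 2. A dimmer Ptpn6 probe set read 17.2 and 14.9 on the arrays numbered 1 and 178.5 and 221.8 on those numbered 2, and its limma adjusted p without the filter was 0.00294. On both probe sets both arrays numbered 2 lay above both numbered 1, but the difference was 0.20 on the brightest and 3.64 on the dimmer one. Aif1, the calcium-binding macrophage marker Iba1, was absent on all arrays, at 35.3 and 57.8 on number 1 and 101.0 and 116.0 on number 2, with an adjusted p of 0.365 without the filter.

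In all, 9 genes were called present on no array on their brightest probe set: Fcgr1, Trem2, Clec7a, Ly86, Itgam, Cybb, Ccl6, Ptpn6 and Aif1. At the other end 17 genes were present on all 4 arrays. Among the 19 member probe sets present throughout, where the calls do not differ, 14 were higher on number 2 by at least 2-fold in both groups, against 0.329% of all such probe sets, and 18 of 19 had both arrays numbered 2 above both numbered 1, against 20.0%. Over all member probe sets 56 of 63 had both arrays numbered 2 on top, against 18.1%, and none had both below, against 18.5%. Of the 23 probe sets that do not stand for their gene, 20 had both arrays numbered 2 on top.

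A further list of 72 macrophage and myeloid genes was examined in the same way, 64 of them on the array. The numbers called present were 18 and 17 on control 1 and mTert 1 and 31 and 34 on control 2 and mTert 2, and in the order control 1, control 2, mTert 1, mTert 2 the summed signals were 12834, 22011, 13912 and 20575. Of the 32 genes that entered the limma fit 16 were higher on number 2 and 0 lower, where 1.73% of all tested probe sets were higher, but 13 of the 32 entered through their present calls on number 2 alone. The median difference over the 64 was 0.79 and the lowest -0.50. Of the 64 genes, 30 were present on no array, 43 were higher on number 2 in both groups and 5 were lower in both. Ms4a7, a membrane protein of macrophages, read 182.2 and 215.7 on control 1 and mTert 1, absent on both, and 730.7 and 809.6 on control 2 and mTert 2 (limma adjusted p = 0.000271 without the filter). Ms4a6d, of the same family, rose from 35.8 and 57.1 to 191.1 and 187.3 (0.0339, and with the filter 0.108 without control 2 and 0.109 without mTert 2). Stab1, a scavenger receptor that sinusoidal endothelium also makes, rose from 57.8 and 62.5 to 268.9 and 194.7 (0.0251, and with the filter 0.0934 without control 2). The members' median of 1.66 lay above that of this list, and both above that of all probe sets, -0.01.

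**Figure D3:**
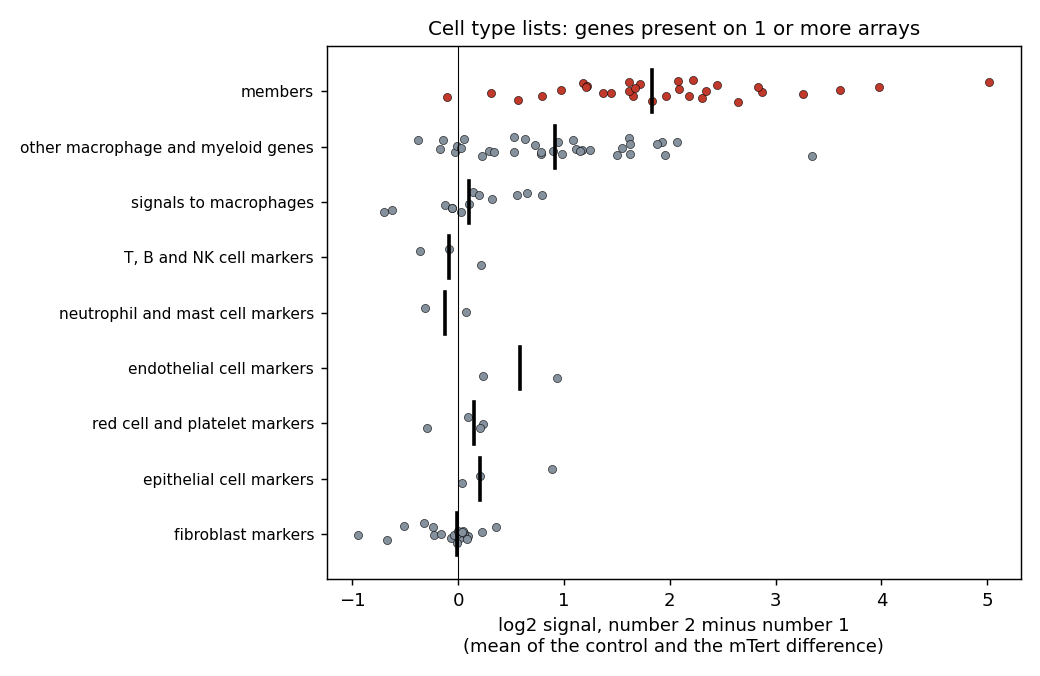
Number 2 minus number 1 on the log2 scale (mean of the control and the mTert difference) for genes of each list that at least 1 array called present, with a bar at the median of the points. The 31 members plotted run from -0.10 to 5.02, while the 20 fibroblast markers run from -0.94 to 0.36.

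Few markers of other cell types that an embryo culture could hold entered the test between numbers, and none of those passed. Most were present on no array and could not enter. Without the filter on calls 0 passed in each list. Of 20 T, B and NK cell markers on the array, 2, 2, 1 and 3 were present on control 1, control 2, mTert 1 and mTert 2, and of 19 neutrophil and mast cell markers 2 were present on each array. The corresponding counts were 2, 1, 2 and 1 of 16 endothelial markers, 4, 3, 4 and 4 of 13 red cell and platelet markers and 1, 3, 2 and 1 of 14 epithelial markers. Among the red cell and platelet markers, 1 that was present on no array was at least 2-fold higher on number 2 in both groups, as 1.31% of all probe sets were. In each of these 5 lists limma called 0 of the 2 to 4 genes that entered the fit. At an unadjusted p under 0.05 there was 1 in all. That gene was Tek, an endothelial receptor, with signals of 74.4, 181.0, 131.2 and 197.8 in the same order of arrays (difference 0.94, adjusted p = 0.0917).

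Fibroblast markers had a median difference of -0.01 between numbers, with 1 of 20 higher and 3 lower, where 1.73% and 1.07% of all tested probe sets were. Thy1, a surface glycoprotein of fibroblasts, fell from 3318.3 and 3211.2 on control 1 and mTert 1 to 1917.8 and 2180.6 on control 2 and mTert 2 (-0.68, SE 0.11, limma adjusted p = 0.00136). Fap, a fibroblast surface protease, fell from 800.8 and 601.2 to 393.7 and 331.5 (-0.94, adjusted p = 0.00351), and the proteoglycan Dcn from 3817.1 and 3708.4 to 3064.3 and 2281.5 (-0.51, adjusted p = 0.0150). S100a4, a calcium-binding protein that fibroblasts and macrophages both make, rose from 3787.6 and 3714.3 to 4706.0 and 4893.5 (0.36, adjusted p = 0.0446). Of the 20 markers 4 passed, and none kept its call in every alternative. Without control 2 the adjusted p was 0.0774 for Thy1, 0.101 for Fap and 0.207 for S100a4. Without mTert 2 it was 0.215 for Fap, 0.375 for Dcn and 0.287 for S100a4, and without control 1 it was 0.128, 0.208 and 0.118 for these 3. Without mTert 1 it was 0.158 for both Dcn and S100a4. Their part in the members' difference was not tested.

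Of 17 genes on the array whose products attract or sustain macrophages, 11 entered the fit, and 3 of these were higher on number 2 and 1 lower, where 1.73% and 1.07% of all tested probe sets were. The median over the 17 was -0.06. Ccl2, the monocyte chemoattractant, read 336.8 and 249.1 on control 1 and mTert 1 and 500.2 and 502.9 on control 2 and mTert 2 (0.79, SE 0.19, limma adjusted p = 0.0312). The neutrophil chemokine Cxcl1 rose from 699.1 and 593.7 to 1000.9 and 1024.3 (0.65, adjusted p = 0.0263). Cx3cl1, the ligand of Cx3cr1, fell from 632.1 and 699.4 to 416.3 and 401.6 (-0.70, adjusted p = 0.0312). None of these 3 calls held whichever array was left out. Without control 2, mTert 1 and mTert 2 in turn the adjusted p was 0.316, 0.239 and 0.305 for Ccl2, 0.217, 0.159 and 0.236 for Cxcl1 and 0.175, 0.164 and 0.207 for Cx3cl1, which also missed the threshold without control 1 (0.0688). Whether these genes and the members are linked was not tested.

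mTert was then set against control. In limma, 0 of the 12396 probe sets passed an adjusted p under 0.05, with 105 higher and 156 lower at an unadjusted p under 0.05, and among the 37 member probe sets 0 passed, also unadjusted. Both groups hold an array of each number, so their spread includes the difference between numbers: the standard errors of the 37 member probe sets ran from 0.11 to 2.03 on the log2 scale. With number as a second term these standard errors ran from 0.115 to 0.42. In that fit 18 of the 12396 probe sets passed, 3 higher and 15 lower. Of the 37 member probe sets 0 passed, with 2 at an unadjusted p under 0.05. Here too the exact two-sided permutation test of 2 arrays against 2 can go no lower than p = 0.333. A p that misses the threshold does not show that the groups were alike.

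The 4 genes with the smallest p in the fit without number were Fcgr2b, Arhgdib, Cyba and C1qc, each with a limma adjusted p of 1.00. Fcgr2b, whose signals are given above, averaged 2003 ± 553 in control and 2352 ± 61.7 in mTert (SD, n = 2), a log2 difference of 0.26 (SE 0.19). Arhgdib averaged 2012 ± 192 in control and 2199 ± 7.52 in mTert, a difference of 0.13 (SE 0.11), and its 2 mTert arrays lay above both controls. Cyba differed by 0.16 (SE 0.25) and C1qc by 0.42 (SE 0.95), with arrays that overlapped between groups. Of the 40 genes, Arhgdib alone had mTert above control without overlap, and Trem2, absent on all arrays, alone the reverse, where 13.8% of all probe sets did the former and 12.6% the latter, 26.4% together.

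At equal number the median differences between the groups were smaller than those between numbers within a group. At number 1, 35 of the 40 genes were higher on mTert 1 than on control 1, where 56.4% of all probe sets were, with a median of 0.33. At number 2, 24 were higher and 16 lower on mTert 2 than on control 2, where 45.6% of all probe sets were higher, with a median of 0.05. For all probe sets the medians were 0.05 and -0.03. Control 1 is the array with the smaller amount of cRNA, and the part of that amount in the values at number 1 was not tested. At number 1 a single gene differed by 2-fold or more (Ccl6, higher), where 5.57% of all probe sets were that far above and 3.49% that far below. At number 2 no gene was 2-fold higher and 2 were 2-fold lower (Trem2 and Ccl6), where 3.02% of all probe sets were above and 6.45% below. Both genes were called absent on all arrays.

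Of the genes called present on at least 1 array, C1qc differed most at number 1, at 177.7 on control 1 and 310.0 on mTert 1, absent on both. At number 2 it read 1143.5 on control 2 and 1170.0 on mTert 2. Plek was higher on mTert 1 (128.9) than on control 1 (86.3) and lower on mTert 2 (284.6) than on control 2 (394.5). In all 13 genes were higher with mTert at number 1 and lower at number 2, 2 showed the opposite order, 22 were higher at both numbers, and 3 were lower at both (Adgre1, Cx3cr1 and the absent Trem2). Adgre1 read 350.5 on mTert 1 against 409.8 on control 1, and 901.8 on mTert 2 against 1057.7 on control 2. Among the member probe sets present on all 4 arrays the medians were 0.20 at number 1 and 0.07 at number 2, well under the 1.67 by which the same probe sets differed between numbers.

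**Figure D4:**
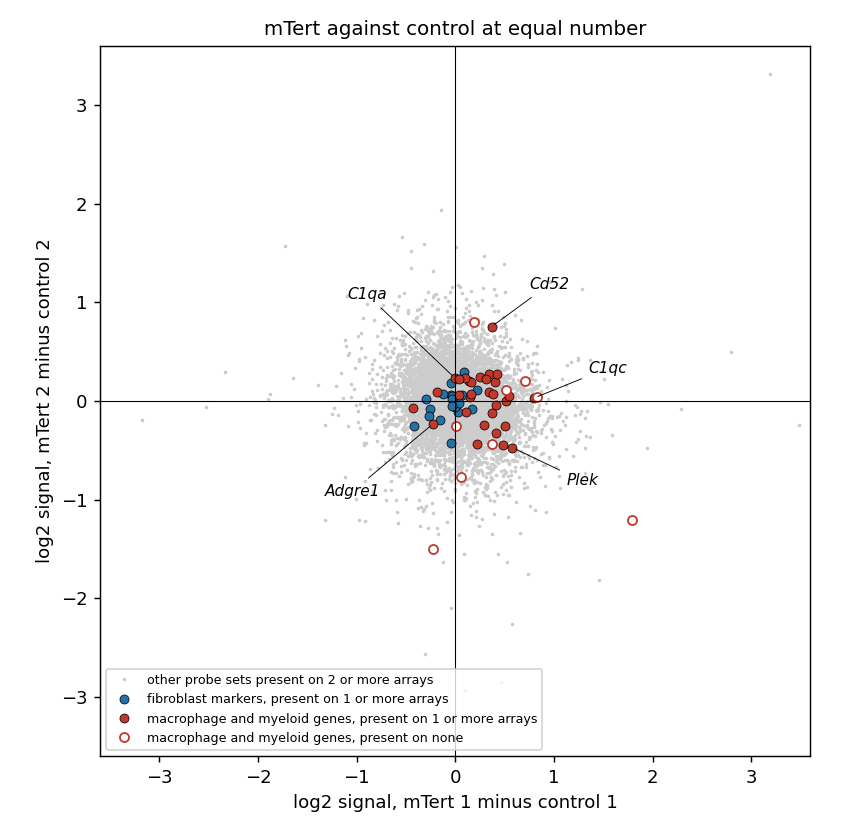
Difference in log2 signal between mTert and control at number 1 (x axis) and at number 2 (y axis), with the same colours as in the plot of numbers within groups. Every red filled point lies within 1 unit of 0 on both axes, and C1qa lies at 0.00 and 0.23.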

How the data were processed

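Each of the 4 samples of mouse embryonic fibroblasts had 1 Affymetrix MOE430A array and took its group and number from its title. For every probe set the authors deposited an intensity (linear scale), a detection call and the detection p-value behind it, per the file headers. How the probes were summarised is not stated in the sources used here. A series-wide table of the authors repeated these intensities exactly (largest difference 0). Precision is limited by having 2 arrays a group.

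Of 22690 probe sets, 64 controls were left out. Signals were scaled to a common mean after trimming 2% at each end and taken to log2, with the lowest present signal of the array put in place of 1 signal of 0. The platform annotation gave 1 symbol for 20380 probe sets and several for 691, and did not list 1555. limma 3.58.1 (R 4.3.3; lmFit, eBayes with an intensity trend) was fitted to the 12396 probe sets present on at least 2 arrays, with group alone for mTert minus control and with group and number for number 2 minus number 1. Benjamini-Hochberg adjusted p under 0.05 was called. Where a gene was absent on both arrays of the dim side, the fold is a bound: the bright side's mean over, per array, the higher of the lowest present signal and the probe set's own signal. For the bounds given, the own signal was always the higher, so each bound equals the plain ratio of signals. Such a bound takes no account of the spread between arrays. The scripts were tested on simulated data. Named genes of the other lists were recomputed under the same alternatives.

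The genes, the other lists and the tests were chosen with earlier results of these data known. Every member could be named. Each other list could name the 4 genes with the largest difference between numbers among those present on at least 1 array. Alternatives were the number as a replicate block, no group term, no trend, other filters on calls, quantile and median scaling, an offset of 32 and leaving out each array. For mTert minus control, single genes were recomputed under the alternatives only for the 4 with the smallest p. A call from the deposited detection p-value at 0.05 gave the same calls as those deposited, whose largest present p-value was 0.0461 and smallest other 0.0502.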

Additional observations from a re-analysis of the deposited data

How the results depend on the processing

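For number 2 minus number 1, the count over all probe sets was 347 and fell to 192 without the group term, to 76 without the intensity trend and to between 80 and 204 without single arrays. Of the member probe sets 34 were called, and 16 when only the 19 present on all 4 arrays were tested, since fewer entered. The other settings with all 4 arrays gave 26 to 38 and the fits without single arrays 24 to 34. The median over the 40 genes was 1.66, with 1.46 after adding 32 to each signal, 1.90 over the 28 genes that passed the filter and 1.50 to 1.76 without single arrays. Within control the offset gave 1.54 and the filter 2.05, and within mTert they gave 1.38 and 1.86. The offset damps dim signals, and the filter leaves out absent genes by construction. Over the recomputed fits of the 25 genes called, 244 kept the call and 20 lost it (7 genes). Of the 3 genes tested and not called, 2 gained a call in 1 fit each and 1 changed sign, Arhgdib, which ran from -0.21 to 0.012 without single arrays.

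For mTert minus control, the replicate block with the title number as the pairing term gave 18 calls over all probe sets (3 higher, 15 lower) in place of 0. No member probe set was among them, with 2 of 37 at an unadjusted p under 0.05 and a smallest limma adjusted p of 1.00. Differences between numbers within control and within mTert had an r of 0.37 over the 12396 probe sets, which share a number and no stated source. Leaving out an array makes the numbers unequal between groups. The median over the 40 genes then ran from -0.83 to 1.08, Fcgr2b from -0.026 to 0.54, Cyba from -0.15 to 0.48 and C1qc from -0.92 to 1.76. With 2 arrays a group, and signals of many members below the present call, small differences between mTert and control were not detectable.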
